A study of Mus musculus with 10 samples.

Results

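The mitochondrial solute carriers are 54 protein-coding mouse genes, out of 29972 genes with summed TPM and 21470 protein-coding ones. They were chosen by name: every gene with a symbol starting Slc25a, the uncoupling proteins Ucp1, Ucp2 and Ucp3, the pyruvate carrier subunits Mpc1 and Mpc2, and the related outer membrane proteins Mtch1 and Mtch2. Their RNA was measured in 10 libraries of cells sorted from mouse liver. Hepatocyte-derived peripheral cholangiocytes (HpC, 4 libraries) came from Alb-Cre+/-;Rbpjf/f;Hnf6f/f mice aged P124 to P151 (postnatal days). Peripheral cholangiocytes (pC, 3 libraries) came from Rbpjf/f;Hnf6f/f mice without Cre, aged P119 to P151. Hepatocytes (H, 3 libraries) came from Alb-Cre+/-;Rbpjf/f;Hnf6f/f mice aged P134 to P139. All mice carried both floxed alleles on a mixed C57BL/6, FVB and CD1 background, and Cre was driven by the albumin promoter, which is active in hepatocytes and their precursors. HpC and H therefore share a genotype, whereas HpC and pC differ in both Cre and origin. H2 and H3 have the same age, P139, as does HpC4, and HpC2 and pC1 are both P151. Within HpC and within pC every library has a different age, so the libraries of each of these groups came from different animals. The labels do not say whether H2 and H3 did, so part of the spread within H may be technical.

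The inner membrane of the mitochondrion is closed to most metabolites, and carriers of the SLC25 family move them across it, usually by exchange. They bring in ADP, phosphate, pyruvate, acylcarnitines, amino acids and cofactors, and let out ATP, citrate, citrulline and other products. Hepatocytes depend on several of them for the urea cycle, gluconeogenesis, fatty acid oxidation and fatty acid synthesis. A few relatives sit elsewhere: Mtch1, Mtch2 and Slc25a46 in the outer membrane, and Slc25a17 in peroxisomes. Uncoupling proteins carry protons or small anions and can lower the membrane potential.

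Values are deposited TPM, a per-length abundance in which each library sums to the same total, divided by a scaling factor per library (scaled TPM). How many reads lie behind a value is unknown, so neither its counting error nor a limit of detection could be set. Libraries had 10232 to 14489 genes at 1 TPM or more. The sums of hepatocyte and of cholangiocyte markers set HpC and pC apart from H, as the labels would have it. The 10 hepatocyte markers held 3587 to 8232 deposited TPM in HpC, 1586 to 3975 in pC and 43434 to 45939 in H. The 10 cholangiocyte markers held 1429 to 4253 in HpC, 8217 to 8738 in pC and 49.1 to 87.7 in H. Of these 10, 9 rose and 1 fell in HpC against H, and 9 rose and none fell in pC against H. In HpC against pC, none of them rose and 3 fell. HpC1 also held 209186 deposited TPM of 15 pancreatic acinar genes, against 2113 in pC3, 302 in HpC3 and at most 28.7 elsewhere. HpC2 held 46766 of 14 squamous epithelial genes, against at most 19.1 elsewhere. Counts are therefore also given without HpC1 and HpC2, while pC3 was left out only on its own. Markers of other liver cells moved with the cholangiocyte groups. The 9 stellate and fibroblast markers summed to 40.6 to 107.2 deposited TPM in HpC, 83.4 to 107.3 in pC and 1.37 to 1.82 in H, where none was at 0 in all 3 libraries. The 7 mesothelial markers summed to 277 to 1433 in HpC, 673 to 898 in pC and 0.416 to 1.09 in H, with 1 at 0 in H. Krt19 is in this list and in the cholangiocyte list, so the mesothelial sums and counts include a marker of cholangiocytes. Of the 8 stellate and fibroblast markers tested, 8 rose in HpC against H, 4 rose in pC against H and 1 rose in HpC against pC. Of the 7 mesothelial markers, 6 rose in each comparison against H, and in HpC against pC 3 rose and 1 fell. The part of these cells in the carrier levels was not tested.

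Differences are on the log2(scaled TPM + 1) scale, which understates changes of low genes, and a gene passed when its limma p-value, adjusted by Benjamini-Hochberg over 14765 genes, was at most 0.05. Of the 54 members, 47 had at least 1 TPM in at least 3 libraries and were tested. The other 7 were near or at 0. Ucp1, the uncoupling protein of brown fat, had at most 0.169 scaled TPM in HpC and 0.086 in pC, and was listed at 0 in all 3 H libraries. Ucp3, the form known from muscle, reached 0.111 in HpC and 0.202 in pC and was listed at 0 in H. The testis-type ADP/ATP carrier Slc25a31 stayed at or below 0.122 in HpC, 0.0581 in pC and 0.458 in H. Slc25a41, Slc25a54 and the ornithine carrier relative Slc25a2 stayed below 1 in every library. Slc25a35 reached 3.88 in HpC1 and 1.23 in HpC2 and stayed below 1 in the other 8 libraries, including pC and H.

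Hepatocyte-derived and ordinary peripheral cholangiocytes had similar levels of most carriers. None of the 47 tested members passed between HpC and pC, where 4.54% of all genes tested did. The count was also 0 without HpC1 and HpC2. At an unadjusted p of at most 0.05 there were 6 members, where 17.8% of all genes were. The median difference over the members was 0.08, against -0.01 over all genes, and the median absolute difference was 0.23, against 0.25. The 95% interval of the difference lay within 1 log2 unit of 0, a 2-fold change, for 38 of the 47 members and for 66.5% of all genes. Fewer cells of a type and less RNA per cell cannot be told apart in these bulk libraries. The remaining 9 members, whose intervals leave room for larger differences, included Slc25a5, Slc25a12, Slc25a22, Slc25a25, Slc25a36, Slc25a47, Slc25a48 and Slc25a53.

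The libraries of HpC and pC did not overlap for 6 members, where 16.5% of all genes were apart: 5 were higher in HpC, where 6.78% of all genes were, and 1 was lower, where 9.72% were. These members were singled out after their values were seen. Slc25a48, a carrier with a less settled substrate, stood at 3.36, 3.65, 2.28 and 2.67 scaled TPM in HpC, against 4.60, 10.1 and 5.21 in pC. It was lower in every HpC library, and pC2 held the highest value. The difference was -0.88 ± 0.24 (SE, limma adjusted p = 0.0723), and the 95% interval ran between -1.41 and -0.35. The ADP/ATP carrier Slc25a4 was higher in every HpC library, at 28.6, 37.3, 31.7 and 28.4, against 24.9, 22.2 and 20.8 in pC. Its difference was 0.46 ± 0.15 (adjusted p = 0.137). Mtch2, an outer membrane protein that inserts helical proteins, stood at 20.6, 23.7, 17.0 and 16.3 in HpC, against 15.5, 10.8 and 12.7 in pC (0.54 ± 0.17, adjusted p = 0.115). The others higher in every HpC library were the iron carrier Slc25a37 (0.48 ± 0.19, adjusted p = 0.218), Slc25a34 (0.45 ± 0.20, adjusted p = 0.266) and the oxodicarboxylate carrier Slc25a21 (0.40 ± 0.18, adjusted p = 0.286). Slc25a34 stood at 0.457 to 1.40 scaled TPM in HpC and 0.204 to 0.386 in pC. Slc25a21 stood at 0.194 to 0.854 in HpC and 0.0958 to 0.116 in pC. Slc25a34 and Slc25a21 passed the filter through their H libraries, so their differences lie between values near 0. Slc25a4 and Slc25a48 passed where only protein-coding transcripts were summed, an alternative chosen after the data were seen: Slc25a4 then differed by 0.54 (adjusted p = 0.0407) and Slc25a48 by -0.89 (adjusted p = 0.0488). The higher level of Mtch2 in HpC was not seen over the coding transcripts of the GENCODE basic set. By that sum Mtch2 averaged 1.821 ± 0.398 scaled TPM in HpC and 1.781 ± 0.454 in pC (SD), and its libraries overlapped. The libraries of the other members named in this paragraph stayed apart by it.

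**Figure D1:**
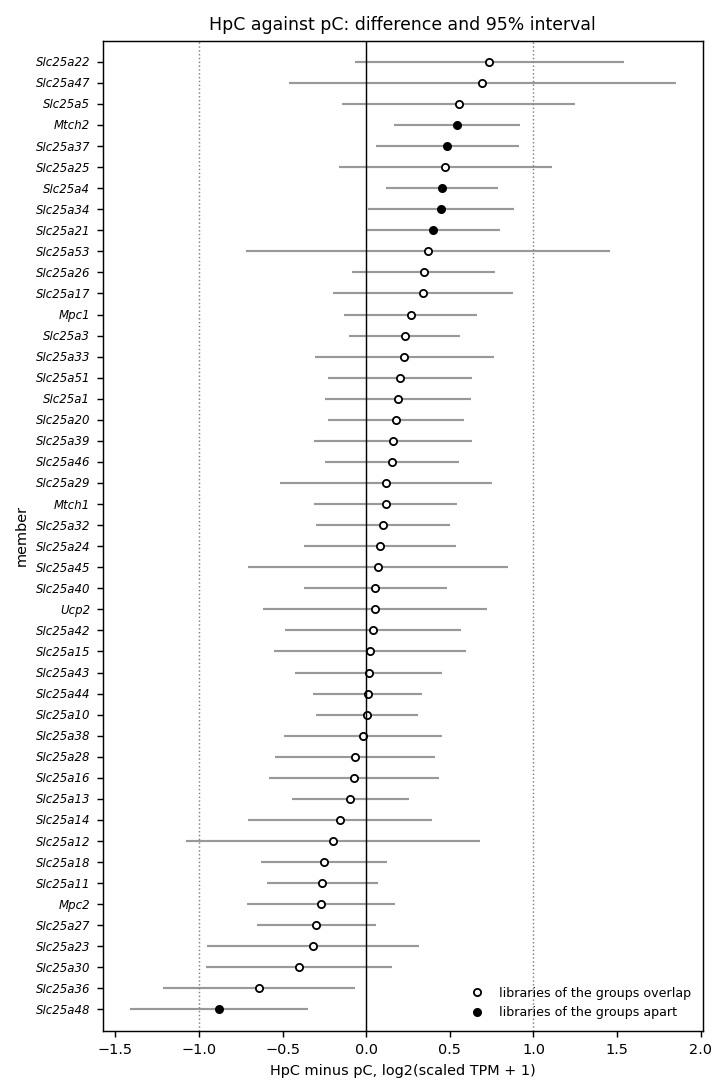
Difference between HpC (4 libraries) and pC (3 libraries) for 46 of the 47 tested members (vertical axis), on the log2(scaled TPM + 1) scale (horizontal axis), with its 95% interval from limma; filled points are members whose libraries do not overlap and dotted lines mark 1 log2 unit. The points lie between -0.88 (Slc25a48) and 0.74 (Slc25a22), and most intervals cross 0.

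Both kinds of cholangiocyte stood far from hepatocytes. In HpC against H, 28 members fell, 6 rose and 13 did not pass, where 29.2% of all genes tested fell and 30.7% rose. In pC against H, 29 members fell, 7 rose and 11 did not pass, where 28.6% of all genes fell and 31.1% rose. The median difference over the members was -1.16 in HpC against H and -1.08 in pC against H, against 0.08 and 0.11 over all genes. The 2 comparisons share the same H libraries. Without HpC1 and HpC2, 27 members fell and 7 rose in HpC against H. On TPM as deposited, where the median gene was 0.87 higher in HpC than in H, 18 members fell and 12 rose, while 1519 and 7553 of the 14765 genes did. In pC against H the median gene was then 1.1999 higher, and 19 members fell and 16 rose, while 1255 and 9361 genes did. Changes against H are therefore read relative to the other genes. Members that passed as lower and whose direction turned on TPM as deposited included Slc25a25, Slc25a28, Slc25a37 and Slc25a51 in HpC against H, and Slc25a3, Slc25a11, Slc25a25, Slc25a26, Slc25a37, Slc25a46 and Slc25a51 in pC against H. Of the named members only Slc25a3 then passed in the new direction (0.99, adjusted p = 0.0196). Members that did not pass on scaled TPM but passed as higher on TPM as deposited were Slc25a3, Slc25a12, Slc25a14, Slc25a17, Slc25a30 and Slc25a43 in HpC against H, and Slc25a12, Slc25a14, Slc25a17, Slc25a27, Slc25a28, Slc25a43, Slc25a53 and Mtch1 in pC against H.

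The members together held 1199 ± 142.4 scaled TPM in HpC (SD, n = 4), 1103 ± 114 in pC (n = 3) and 3956 ± 221 in H (n = 3). HpC ranged between 1052 and 1335, pC between 1003 and 1227 and H between 3742 and 4183, so on scaled TPM the cholangiocyte groups overlapped and neither reached H. As a share of the TPM of nuclear protein-coding genes, a scaling with no between-library factor, the sums were 0.247% ± 0.064 in HpC, 0.278% ± 0.028 in pC and 0.434% ± 0.032 in H. HpC1 was lowest at 0.151%, and the 3 other HpC libraries lay between 0.276% and 0.285%. On TPM as deposited the sums were 1426 ± 375 in HpC, 1718 ± 143.8 in pC and 2093 ± 220 in H, and pC and H then overlapped, since pC1 (1875) lay above H2 (1867). Of these sums, the non-coding transcript Slc25a12-204, described below, held 461 TPM in pC1 and 35.7 in H2, so the overlap rests on it. Without that transcript the shares of nuclear protein-coding TPM were 0.214% ± 0.060 in HpC, 0.228% ± 0.015 in pC and 0.420% ± 0.028 in H. None of these sums was tested.

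**Figure D2:**
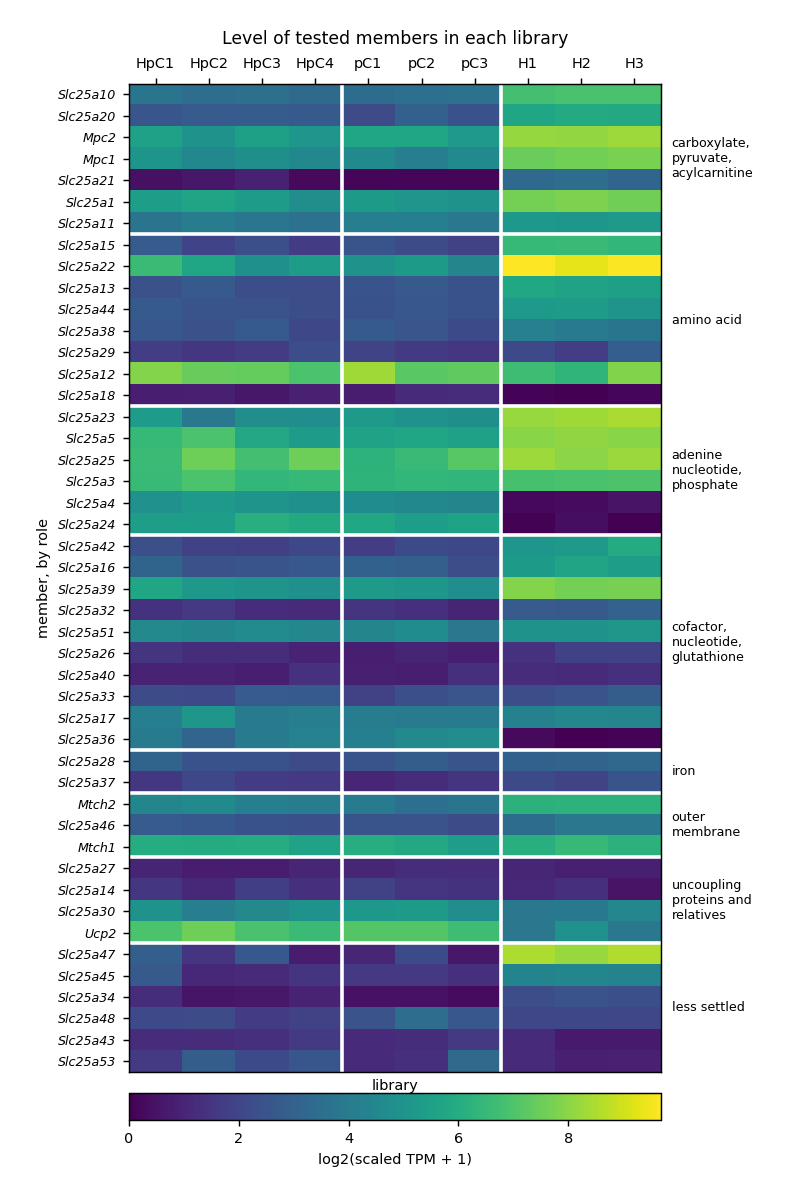
Level of 46 of the 47 tested members (rows, grouped by role and ordered within a role by the difference between HpC and H) in the 10 libraries (columns), as log2(scaled TPM + 1). The HpC and pC columns look alike, and the H columns are brighter for the carboxylate and most amino acid carriers and darker for Slc25a4, Slc25a24, Slc25a36 and Ucp2.

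The carriers of pyruvate, carboxylates and acylcarnitines fell together: 7 of 7 were lower in HpC than in H and 7 of 7 in pC than in H, and 6 of 7 in each when TPM was used as deposited, where Slc25a11 did not pass. The mitochondrial pyruvate carrier is a heterodimer of Mpc1 and Mpc2. Mpc1 (ENSMUSG00000023861, mm10 chr17:8282904-8297661, plus strand) averaged 25.6 ± 4.52 scaled TPM in HpC and 21.1 ± 3.89 in pC, against 195 ± 17.4 in H, and Mpc2 averaged 38.5 ± 8.17, 46.4 ± 9.40 and 289 ± 14.7 in the same groups. Over all transcripts both subunits fell by a similar amount in HpC against H, -2.89 ± 0.18 for Mpc1 (adjusted p = 5.08e-07) and -2.90 ± 0.20 for Mpc2 (adjusted p = 9.47e-07). Over the coding transcripts of the GENCODE basic set, Mpc1 stood at 12.1, 2.32, 3.09 and 4.71 in HpC, against 26.0, 25.8 and 7.57 in H. HpC1 then lay above H3. By that sum, chosen after the data were seen, Mpc2 stood at 12.2 to 16.8 in HpC and 109.8 to 111.4 in H. Of the 50-base stretches of Mpc1 transcripts, weighted by TPM, 46.5% also occur in another gene, mainly its processed pseudogene Mpc1-ps. Mpc1-ps stood at 28.5 to 64.8 scaled TPM in HpC, 29.4 to 39.9 in pC and 431 to 488 in H, so it followed the same order, and the division of reads between gene and copy is uncertain.

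The dicarboxylate carrier Slc25a10, which exchanges malate and succinate for phosphate, stood at 12.5, 9.97, 10.8 and 9.18 scaled TPM in HpC and 9.81, 10.6 and 11.2 in pC, against 108.5, 119.3 and 119.4 in H. HpC and pC were all but equal (0.00 ± 0.14, 95% interval -0.30 to 0.31), while HpC fell by 3.33 ± 0.14 against H (adjusted p = 6.48e-08). The carnitine/acylcarnitine carrier Slc25a20, which admits fatty acids for oxidation, stood at 5.11, 5.97, 6.00 and 5.76 in HpC, 3.79, 7.07 and 4.39 in pC and 51.4, 59.9 and 56.9 in H (-3.09 ± 0.18 in HpC against H, adjusted p = 3.94e-07). The citrate carrier Slc25a1, which exports citrate for fatty acid synthesis, averaged 39.0 ± 9.22 in HpC, 33.4 ± 4.10 in pC and 205 ± 14.1 in H. The smallest change of the group was that of the oxoglutarate carrier Slc25a11 of the malate-aspartate shuttle, -1.35 ± 0.15 in HpC against H (-0.26 and not passed on TPM as deposited) and -1.08 ± 0.16 in pC against H (0.41 and not passed). Slc25a21 was the lowest of them, at 0.479 ± 0.285 in HpC, 0.108 ± 0.0105 in pC and 8.90 ± 1.03 in H.

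Among 8 tested amino acid carriers, 5 fell and 1 rose in HpC against H, and likewise in pC against H. On TPM as deposited 4 fell and 2 rose in each. The ornithine/citrulline carrier Slc25a15 (ENSMUSG00000031482, chr8:22375551-22398597, minus strand), which links the mitochondrial and cytosolic steps of the urea cycle, stood at 6.09, 2.87, 4.21 and 2.32 scaled TPM in HpC and 4.66, 3.69 and 2.64 in pC, against 89.3, 94.1 and 83.4 in H. No cholangiocyte library came near an H library, and the difference was -4.27 ± 0.26 in HpC against H (adjusted p = 4.42e-07) and -4.29 ± 0.28 in pC against H (adjusted p = 6.60e-07). The glutamate carrier Slc25a22 stood at 95.5, 50.6, 28.5 and 39.4 in HpC, 30.6, 37.5 and 20.4 in pC and 824, 640 and 782 in H (-3.92 ± 0.36 in HpC against H, adjusted p = 7.11e-06). Its only close relative among the members, the glutamate carrier Slc25a18, was low everywhere and went the other way, at 0.748 ± 0.132 in HpC, 1.10 ± 0.344 in pC and 0.0559 ± 0.0503 in H (0.73 ± 0.17 in HpC against H, adjusted p = 0.00391). Slc25a18 reached 1 deposited TPM only in HpC4 and the pC libraries, so it passed the filter only through the groups where it was higher.

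Citrin, the aspartate/glutamate carrier encoded by Slc25a13, stood at 4.27, 5.77, 4.02 and 3.91 scaled TPM in HpC and 4.69, 5.47 and 4.35 in pC, against 53.7, 47.1 and 45.0 in H. It fell by 3.18 ± 0.16 in HpC against H (adjusted p = 1.55e-07) and differed between HpC and pC by -0.10 ± 0.16 (95% interval -0.45 to 0.26). The branched-chain amino acid carrier Slc25a44 (-2.66 ± 0.15) and the glycine carrier Slc25a38 (-1.50 ± 0.21) also fell in HpC against H, though Slc25a38 did not pass on TPM as deposited (-0.48, adjusted p = 0.194). Slc25a29, a carrier of basic amino acids, did not pass and averaged 2.65 ± 0.922 in HpC, 2.32 ± 0.538 in pC and 4.11 ± 2.14 in H.

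The paralog of Slc25a13, the aspartate/glutamate carrier aralar (Slc25a12), did not pass in any comparison on scaled TPM. On TPM as deposited it rose in HpC against H (1.59, adjusted p = 0.00315) and in pC against H (2.21, adjusted p = 0.000386), with 159 to 240.2 in HpC and 230.2 to 480 in pC, against 39.4 to 116 in H. It stood at 238, 171, 166 and 123 scaled TPM in HpC and 314, 147 and 160 in pC, against 102, 78.9 and 230 in H, which put it among the 5 members with the highest mean level. That level came mostly from 1 short transcript with no coding annotation. Slc25a12-204, of 204 bases, held 94.6% ± 1.2 of the TPM of the gene in HpC, 94.7% ± 1.5 in pC and 94.0% ± 4.0 in H, and the coding transcript Slc25a12-206, of 6351 bases, held 1.6%, 1.5% and 1.9%. TPM divides reads by length, so a short transcript needs few reads to reach a high value. The sequence of Slc25a12-204 is shown because the value of the gene rests on it (GENCODE M21, mm10, minus strand). Its first exon, chr2:71347768-71347828, is 61 bases long and is not an exon of Slc25a12-206, and its second, chr2:71343890-71344032, is 143 bases long and is. Capitals mark the 6 copies of ATCC in the first exon:
Slc25a12-204: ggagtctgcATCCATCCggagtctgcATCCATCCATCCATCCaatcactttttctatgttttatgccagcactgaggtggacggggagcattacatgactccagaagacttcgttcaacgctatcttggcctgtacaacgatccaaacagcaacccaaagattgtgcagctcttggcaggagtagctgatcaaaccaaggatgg
None of its 50-base stretches occurs in another gene whose transcripts the deposited tables list.

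Summed over the coding transcripts of the GENCODE basic set, an alternative chosen after the data were seen, Slc25a12 stood at 2.55, 3.42, 2.13 and 2.73 scaled TPM in HpC and 2.86, 2.57 and 3.07 in pC, against 2.04, 2.28 and 1.73 in H. HpC and H then differed by 0.29 ± 0.15 (adjusted p = 0.103). By the same sum Slc25a22 stood at 0.48, 1.91, 2.28 and 0.00 in HpC, 2.15, 0.45 and 0.09 in pC and 21.3, 17.1 and 15.7 in H, and still fell, by 3.29 ± 0.45 in HpC against H (adjusted p = 9.63e-05). The level of Slc25a22 thus rested on other transcripts too: Slc25a22-207, of 213 bases, held 45.9% ± 31.2 of the TPM of the gene in HpC, 65.3% ± 14.4 in pC and 74.3% ± 4.8 in H. Non-coding transcripts held over 50% of the TPM of 9 members in all 3 groups: Mpc2, Mtch2, Slc25a1, Slc25a12, Slc25a14, Slc25a29, Slc25a43, Slc25a53 and Ucp2. The leading transcript of the phosphate carrier, Slc25a3-201, held 46.2%, 52.2%, 58.3% and 35.6% of the TPM of Slc25a3 in HpC, 51.3%, 42.7% and 39.1% in pC and 72.1%, 78.0% and 63.7% in H. The share was below every H library in all 7 cholangiocyte libraries. These shares are estimates of the authors' quantification from short reads and were not tested.

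**Figure D3:**
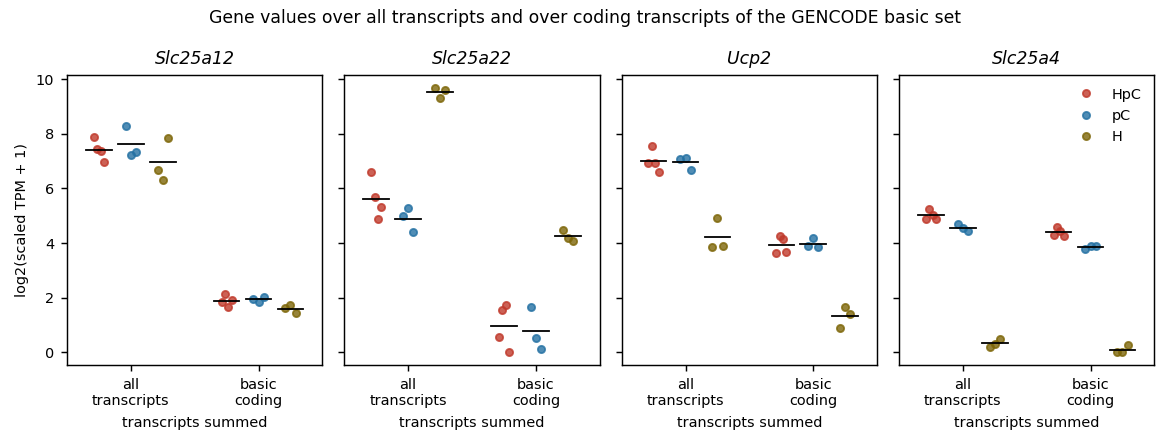
Level of Slc25a12, Slc25a22, Ucp2 and Slc25a4 in each library of HpC, pC and H, as log2(scaled TPM + 1) on the vertical axis, summed over all transcripts (left in each panel) and over the coding transcripts of the GENCODE basic set (right); points are libraries and bars are group means. Slc25a12 drops to 1.73 to 3.42 scaled TPM in all libraries when only basic coding transcripts are summed. For Ucp2 and Slc25a4 H stays below HpC and pC by both sums.

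The ADP/ATP carriers exchange ATP made in the matrix for cytosolic ADP, and mice have a heart and muscle form, Slc25a4, and a widely expressed form, Slc25a5. Slc25a4 (ENSMUSG00000031633, chr8:46206797-46211284, minus strand) was near 0 in hepatocytes, with 31.5 ± 4.17 scaled TPM in HpC and 22.6 ± 2.08 in pC, against 0.265 ± 0.133 in H. It rose by 4.68 ± 0.15 in HpC against H (adjusted p = 2.69e-08) and by 4.22 ± 0.16 in pC against H (adjusted p = 5.56e-08). Slc25a5 (ENSMUSG00000016319, chrX:36795651-36798807, plus strand) went the other way, at 87.9, 122, 56.6 and 40.1 in HpC, 47.3, 50.2 and 45.6 in pC and 249, 272 and 249 in H. It fell by 1.85 ± 0.31 in HpC against H (adjusted p = 0.00051) and by 2.40 ± 0.33 in pC against H (adjusted p = 0.000138). On TPM as deposited the first of these differences was -0.73 and did not pass (adjusted p = 0.0601).

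The coding starts of both genes are shown because the contrast between these paralogs rests on telling their reads apart (mm10, reference transcripts Slc25a4-201 at chr8:46210833-46210922 on the minus strand and Slc25a5-201 at chrX:36795731-36795820 on the plus strand). The first 90 coding bases are printed, and capitals mark the 24 positions at which the genes differ:
Slc25a4: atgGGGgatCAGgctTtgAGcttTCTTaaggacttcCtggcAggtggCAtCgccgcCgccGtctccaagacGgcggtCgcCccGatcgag
Slc25a5: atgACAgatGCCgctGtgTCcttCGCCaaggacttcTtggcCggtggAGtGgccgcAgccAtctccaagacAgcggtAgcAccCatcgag
Over the 894 coding bases of each gene 77.4% are identical, and the longest identical run is 20 bases, shorter than a 50-base read. Slc25a4 shares no 50-base stretch with another gene. Of the 50-base stretches of Slc25a5, 42.3% also occur elsewhere, in 6 other genes. Gm5529, Gm5560 and Gm6425, which are among them, reached at most 2.34 scaled TPM in any library.

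Of the 6 tested carriers of adenine nucleotides and phosphate, 2 rose and 3 fell in HpC against H, and 2 rose and 4 fell in pC against H. On TPM as deposited 3 rose and 1 fell in HpC against H, and 3 rose and 2 fell in pC against H. The calcium-dependent ATP-Mg/phosphate carriers, which adjust the adenine nucleotide pool of the matrix, also changed places. Slc25a24 (ENSMUSG00000040322, chr3:109123149-109168457, plus strand) had levels of 41.1, 40.9, 66.7 and 57.4 scaled TPM in HpC and 54.3, 41.0 and 48.0 in pC, against 0.0506, 0.266 and 0 in H. It had the largest rise of any member, 5.55 ± 0.20 in HpC against H (adjusted p = 4.10e-08) and 5.46 ± 0.22 in pC against H (adjusted p = 5.92e-08), and differed between HpC and pC by 0.08 ± 0.20 (95% interval -0.37 to 0.54). Its relative Slc25a23 stood at 39.3, 13.9, 26.9 and 25.9 in HpC, 36.8, 30.6 and 27.1 in pC and 291, 319 and 349 in H, a fall of 3.63 ± 0.28 in HpC against H (adjusted p = 2.34e-06). The third, Slc25a25, was high in all groups, at 145 ± 48.2 in HpC, 103 ± 34.4 in pC and 288 ± 26.2 in H (-1.05 ± 0.29 in HpC against H, adjusted p = 0.0096). Its direction depends on the scaling: on TPM as deposited the difference was 0.082 (adjusted p = 0.879). The phosphate carrier Slc25a3 averaged 96.6 ± 17.0 in HpC, 81.4 ± 3.35 in pC and 120 ± 5.83 in H. It did not pass in HpC against H (-0.33 ± 0.15, adjusted p = 0.0828) and fell in pC against H (-0.56 ± 0.16, adjusted p = 0.0125), with the opposite sign on TPM as deposited. Slc25a3 passed as lower in HpC against H without HpC2 (-0.33, adjusted p = 0.0329).

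**Figure D4:**
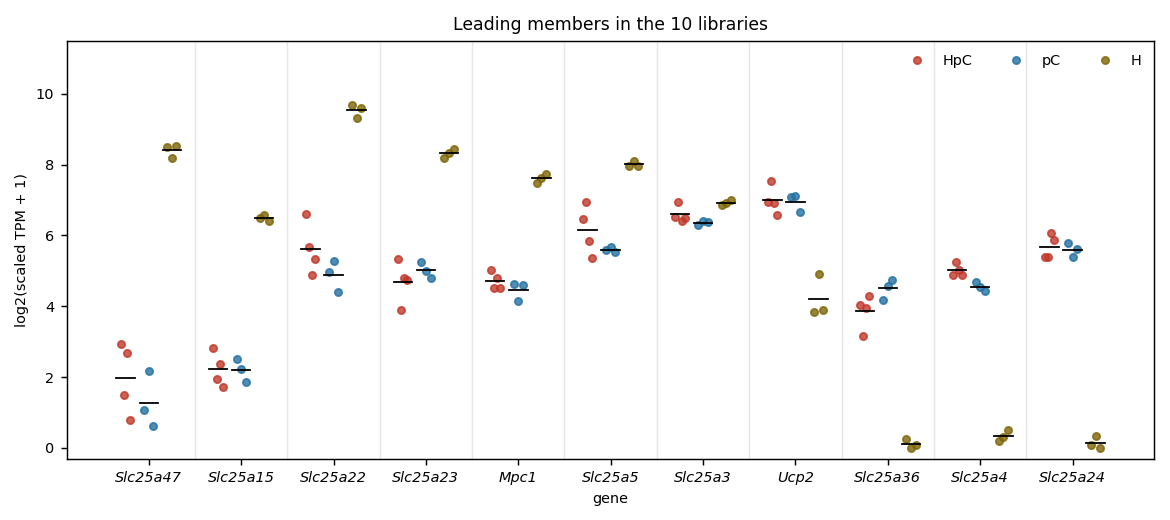
Levels of 11 members in each library of HpC, pC and H, as log2(scaled TPM + 1) on the vertical axis; points are libraries and bars are group means. H stands above both cholangiocyte groups for the 6 genes on the left, close to them for Slc25a3, and below them for Ucp2, Slc25a36, Slc25a4 and Slc25a24.

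Of the 11 carriers of cofactors, nucleotides and glutathione, 6 fell and 1 rose in HpC against H, and 7 fell and 1 rose in pC against H. On TPM as deposited 3 fell and 2 rose in each comparison. The one that rose is the pyrimidine nucleotide carrier Slc25a36 (ENSMUSG00000032449, chr9:97074961-97111157, minus strand). It stood at 15.5, 7.98, 14.5 and 18.6 scaled TPM in HpC and 17.2, 22.9 and 25.8 in pC, against 0.190, 0 and 0.0598 in H, a rise of 3.75 ± 0.26 in HpC against H (adjusted p = 9.69e-07). HpC2 was the lowest cholangiocyte library, and HpC and pC overlapped (-0.64 ± 0.26, adjusted p = 0.225). Of its 50-base stretches 21.3% also occur in the gene Gm13217, which was listed at 0 in all libraries but HpC4 (0.774). The other pyrimidine nucleotide carrier, Slc25a33, did not pass, at 4.75 ± 1.36 in HpC, 3.90 ± 1.11 in pC and 4.97 ± 1.12 in H.

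Among those that fell, the coenzyme A carrier Slc25a42 stood at 4.18, 2.71, 2.61 and 3.33 scaled TPM in HpC and 2.38, 3.58 and 3.29 in pC, against 32.8, 36.3 and 61.0 in H (-3.36 ± 0.24 in HpC against H, adjusted p = 1.08e-06). Slc25a16 fell by 2.77 ± 0.23 (adjusted p = 3.11e-06). Slc25a39, a glutathione carrier, averaged 36.6 ± 10.6 in HpC, 32.1 ± 5.38 in pC and 216 ± 17.5 in H (-2.56 ± 0.21 in HpC against H, adjusted p = 3.30e-06). Its paralog Slc25a40 stayed low in all groups, at 1.08 ± 0.366 in HpC, 1.003 ± 0.386 in pC and 1.36 ± 0.126 in H, and did not pass. The folate and FAD carrier Slc25a32 (-1.51 ± 0.18) and the NAD carrier Slc25a51 (-0.49 ± 0.19) also fell in HpC against H, and neither passed on TPM as deposited, where Slc25a51 was at 0.60. The Slc25a51 call (adjusted p = 0.0483) was also lost without any single H or HpC library, or without pC1, with adjusted p between 0.0602 and 0.176. The S-adenosylmethionine carrier Slc25a26 fell in pC against H (-0.82 ± 0.21, adjusted p = 0.00596, and 0.084 on TPM as deposited) and did not pass in HpC against H (-0.48 ± 0.19, adjusted p = 0.0533), although it did without HpC1 (adjusted p = 0.0348) or H1 (adjusted p = 0.0197). Peroxisomal Slc25a17 passed in neither, at 20.7 ± 8.63 in HpC, 15.4 ± 0.992 in pC and 19.8 ± 1.68 in H.

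The iron carriers (mitoferrins) were low in all groups. Slc25a28 averaged 5.05 ± 1.77 scaled TPM in HpC and 5.20 ± 0.903 in pC, against 7.59 ± 0.687 in H, and Slc25a37, the erythroid form, averaged 2.36 ± 0.559, 1.39 ± 0.323 and 3.75 ± 0.871 in the same groups. Both passed narrowly in HpC against H, at -0.54 ± 0.21 (adjusted p = 0.0489) and -0.50 ± 0.19 (adjusted p = 0.045), although their libraries overlapped. Neither call held on TPM as deposited, where the differences were 0.41 and 0.34. The Slc25a28 call was lost without any single library other than HpC1 (adjusted p between 0.0559 and 0.157), and the Slc25a37 call without any other than HpC2 or H2 (adjusted p between 0.0509 and 0.170). In pC against H Slc25a37 fell by 0.98 (adjusted p = 0.00207, and 0.088 on TPM as deposited), and Slc25a28 did not pass (-0.48, adjusted p = 0.0973) but was higher by 0.86 on TPM as deposited (adjusted p = 0.0131). The 7 erythroid markers summed to 59.0 to 366 deposited TPM in HpC, 91.8 to 194 in pC and 5.41 to 11.4 in H, with 3 of the 7 at 0 in H. Their part in the Slc25a37 level was not tested.

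In the outer membrane, Mtch2 (-1.92 ± 0.17, adjusted p = 5.25e-06) and Slc25a46 (-1.16 ± 0.18, adjusted p = 0.00028), a protein of mitochondrial shape and lipid exchange, fell in HpC against H. On TPM as deposited Slc25a46 did not pass (-0.15, adjusted p = 0.629). Mtch1 stood at 62.4, 61.3, 63.0 and 47.3 scaled TPM in HpC and 65.4, 57.2 and 41.0 in pC, against 66.5, 88.8 and 74.3 in H. Its libraries lay just below H in both cholangiocyte groups, and neither difference passed (-0.38 ± 0.19, adjusted p = 0.111, in HpC against H, and -0.50, adjusted p = 0.0584, in pC against H). On TPM as deposited Mtch1 was higher in pC than in H, by 1.04 (adjusted p = 0.0137).

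Ucp2 was the only uncoupling protein at an appreciable level. Over all transcripts it was the most abundant member in pC apart from Slc25a12, but non-coding transcripts held 73.7% of its TPM there. Over the coding transcripts of the GENCODE basic set it averaged 14.9 scaled TPM in pC. Several members then lay above it in pC, among them Slc25a3 (54.5) and Slc25a5 (45.6). Ucp2 (ENSMUSG00000033685, chr7:100493337-100502020, plus strand) had levels of 123, 187, 120 and 95.4 scaled TPM in HpC and 135, 137 and 101 in pC, against 13.3, 29.2 and 13.8 in H. All cholangiocyte libraries lay above all H libraries, with a rise of 2.79 ± 0.30 in HpC against H (adjusted p = 2.19e-05) and 2.74 ± 0.32 in pC against H (adjusted p = 4.22e-05). HpC and pC differed by 0.05 ± 0.30 (95% interval -0.62 to 0.72). Ucp2 is also known from immune cells. The 10 immune markers summed to 16.7 to 51.4 deposited TPM in HpC, 35.9 to 39.0 in pC and 0.221 to 0.473 in H, where 3 of them were at 0, and their part in the Ucp2 level was not tested. Slc25a30, a relative of the uncoupling proteins, rose in pC against H (0.97 ± 0.27, adjusted p = 0.0101) and did not pass in HpC against H (0.56 ± 0.25, adjusted p = 0.0753). It averaged 24.9 ± 6.56 in HpC, 32.8 ± 6.49 in pC and 16.4 ± 4.39 in H. Slc25a14 and Slc25a27 were at or below 2.68 in every library and did not pass. Of these 4 members 1 therefore rose in HpC against H and 2 in pC against H, while on TPM as deposited 3 and 4 did.

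The deepest fall belonged to Slc25a47 (ENSMUSG00000048856, chr12:108836046-108856815, plus strand), a carrier known for its expression in liver and with a less settled substrate. It stood at 6.58, 1.82, 5.42 and 0.732 scaled TPM in HpC and 1.08, 3.49 and 0.530 in pC, against 364, 292 and 366 in H. The libraries of HpC and pC overlapped (0.69 ± 0.52, adjusted p = 0.534), and both lay far below H, by -6.43 ± 0.52 for HpC (adjusted p = 2.74e-06) and -7.13 ± 0.55 for pC (adjusted p = 2.21e-06). The hepatocyte markers, whose sums are given above, were also higher in H than in either, and all 10 of them fell in HpC against H. The part of hepatocyte RNA in the low cholangiocyte values was not tested. Slc25a45 stood at 5.61, 1.09, 1.22 and 1.76 in HpC, 2.07, 2.07 and 1.53 in pC and 19.5, 20.8 and 19.0 in H (-2.78 ± 0.35 in HpC against H, adjusted p = 6.54e-05), and Slc25a34 fell too (-1.56 ± 0.20). Slc25a53 passed as higher in HpC against H, at 2.11, 6.21, 3.56 and 5.09 in HpC and 1.26, 0.823 and 0.837 in H (1.35 ± 0.49, adjusted p = 0.0353). That call was lost without HpC2, HpC3, HpC4 or any single H library (adjusted p between 0.0566 and 0.0890) and without HpC1 and HpC2 (adjusted p = 0.0537), and 95.6% of the Slc25a53 TPM in HpC lay on non-coding transcripts. Slc25a48 rose in pC against H (0.78 ± 0.25, adjusted p = 0.0227), a call lost without pC2 (0.48, adjusted p = 0.0693) or without any single H library (0.78, adjusted p = 0.0566 each). Slc25a43 did not pass, at 1.58 ± 0.363 in HpC, 1.56 ± 0.402 in pC and 0.848 ± 0.378 in H (0.49, adjusted p = 0.0527, in HpC against H), although it passed as higher without HpC2 (adjusted p = 0.0308) or H1 (adjusted p = 0.0255).

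The promoters of 3 genes are shown because they mark the deepest fall (Slc25a47) and the highest rises (Slc25a24 and Slc25a4) among members in HpC against H. Each window spans the RefSeq gene start on GRCm38.p6, with its last 50 bases after it, and is printed on the strand of the gene, and capitals mark every CG dinucleotide. For Slc25a47 the window lies inside the GENCODE span given above, downstream of the start of that span, so the annotations place the gene start differently. The windows are chr12:108850879-108851178 (plus strand), chr3:109122899-109123198 (plus strand) and chr8:46211013-46211312 (minus strand):
Slc25a47: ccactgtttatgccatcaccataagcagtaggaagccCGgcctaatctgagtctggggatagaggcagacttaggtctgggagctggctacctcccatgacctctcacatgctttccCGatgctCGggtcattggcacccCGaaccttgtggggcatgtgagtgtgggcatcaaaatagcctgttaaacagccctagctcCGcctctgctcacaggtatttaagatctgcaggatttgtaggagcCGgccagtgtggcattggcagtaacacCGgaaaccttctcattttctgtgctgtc
Slc25a24: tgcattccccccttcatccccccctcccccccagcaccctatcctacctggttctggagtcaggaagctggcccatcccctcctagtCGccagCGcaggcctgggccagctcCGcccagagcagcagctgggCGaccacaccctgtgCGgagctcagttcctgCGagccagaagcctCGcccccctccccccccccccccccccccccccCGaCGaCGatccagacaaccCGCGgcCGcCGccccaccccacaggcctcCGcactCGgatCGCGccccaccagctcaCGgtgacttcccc
Slc25a4: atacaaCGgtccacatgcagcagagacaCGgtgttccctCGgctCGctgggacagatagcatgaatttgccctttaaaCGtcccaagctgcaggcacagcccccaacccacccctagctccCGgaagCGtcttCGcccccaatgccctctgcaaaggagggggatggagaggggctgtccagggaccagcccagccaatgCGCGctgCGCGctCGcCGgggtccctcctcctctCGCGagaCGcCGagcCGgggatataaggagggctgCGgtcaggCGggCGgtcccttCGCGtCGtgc
The Slc25a47 window held 7 CG dinucleotides, the median of all 32851 RefSeq promoters of this length, against 19 for Slc25a24 and 25 for Slc25a4. RefSeq promoters were found for 43 of the 54 members (55 windows), with a median of 17. The median was 16 for members that fell in HpC against H and 19 for those that rose, with no test made. The letters TATAA, on either strand, were in the Slc25a4 window, in windows of Slc25a5, Slc25a15, Slc25a18, Slc25a21 and Mtch2, and in 24.9% of all promoters. CG itself was in 94.6% of all promoters. These matches describe the windows only.

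Ratios within pairs of paralogs or partners were taken on TPM as deposited. They do not depend on the scaling between libraries, apart from the pseudocount of 1 added to each value. Over 12 pairs and the comparisons HpC against pC and HpC against H, 24 exact two-sided permutation tests were run. The smallest p that 4 against 3 libraries can give is 0.0286, and since 10 tests reached it, their adjusted p was 0.0686 and none passed 0.05. The values are therefore given as a description, and in some of the pairs below the libraries of the compared groups overlap. The log2 ratio of Slc25a4 to Slc25a5 was -1.57, -1.68, -0.82 and -0.49 in HpC, -0.91, -1.15 and -1.11 in pC and -7.07, -6.94 and -6.71 in H. Over basic coding transcripts it was lower in cholangiocytes, at -2.14, -2.34, -1.41 and -1.09 in HpC and -1.80, -1.72 and -1.65 in pC, against -7.19, -7.09 and -6.84 in H. Slc25a4 was below Slc25a5 in all 10 libraries by both sums, and furthest below it in H. For Slc25a23 to Slc25a24 the mean log2 ratio was -0.995 ± 0.641 in HpC, -0.59 ± 0.20 in pC and 7.33 ± 0.17 in H, a change of the leading gene.

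The mean log2 ratio of Slc25a33 to Slc25a36 was -1.37 ± 0.31 in HpC, -2.33 ± 0.08 in pC and 1.78 ± 0.21 in H. It was the only pair at the smallest possible p between HpC and pC (difference 0.96, exact permutation p = 0.0286, adjusted p = 0.0686). The ratio of Mpc1 to Mpc2 averaged -0.56 ± 0.12 in HpC, -1.11 ± 0.48 in pC and -0.56 ± 0.09 in H over all transcripts. Over basic coding transcripts it averaged -1.48 ± 0.73, -2.26 ± 0.90 and -2.53 ± 0.89 in the same groups. By both sums its libraries overlapped in every comparison. The ratio of Slc25a28 to Slc25a37 averaged 0.82 ± 0.43 in HpC, 1.52 ± 0.31 in pC and 0.76 ± 0.15 in H, and HpC overlapped both other groups. Slc25a12 to Slc25a13 averaged 4.998 ± 0.32 in HpC, 5.16 ± 0.65 in pC and 1.31 ± 0.87 in H over all transcripts. Over basic coding transcripts it was -0.53 ± 0.15 in HpC, -0.66 ± 0.23 in pC and -3.68 ± 0.20 in H, so the sign of the ratio in cholangiocytes depends on the transcripts summed, while H stayed lower in both.

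**Figure D5:**
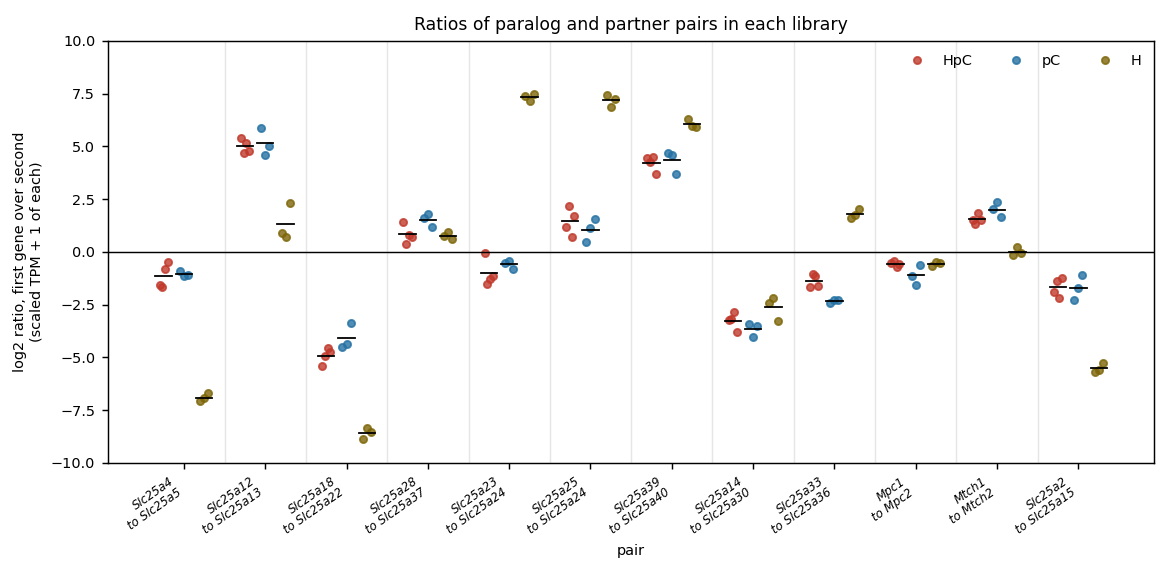
Log2 ratio of the first to the second gene of each of 12 pairs (vertical axis) in the libraries of HpC, pC and H. Ratios are of TPM as deposited + 1 of each gene, although the axis label names scaled TPM. Points are libraries and bars are group means. HpC and pC lie close together in most pairs, and H lies on the other side of 0 for Slc25a23 to Slc25a24 and Slc25a33 to Slc25a36.

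Genes that work beside the carriers were counted from fixed lists, to be read against the shares of all genes that fell and rose given above for the members. The direction depends on the scaling for some of these lists. Of 18 matrix enzymes that use carried substrates, 15 fell and 1 rose in HpC against H, and 16 fell and 1 rose in pC against H. On TPM as deposited 12 fell and 1 rose in HpC against H, and 11 fell and 2 rose in pC against H. All 9 tested cytosolic and outer membrane enzymes served by carriers, among them those of the urea cycle, the malate-aspartate shuttle and gluconeogenesis, fell in both comparisons, and 7 of the 9 did in each on TPM as deposited. The import machinery, which brings carriers into the mitochondrion and inserts them, had 11 genes matched by symbol. Of these 7 fell and none rose in HpC against H, and 8 fell and 1 rose in pC against H, but on TPM as deposited 1 fell and 1 rose in HpC against H, and none fell and 4 rose in pC against H. Of the 3 outer membrane channel genes, 2 fell and none rose in both comparisons, whereas on TPM as deposited none fell and 1, Vdac2, rose in both (1.12 in HpC against H and 1.48 in pC against H, adjusted p = 0.00738 and 0.00151). Among 9 regulators of mitochondrial biogenesis, 2 rose and 6 fell in HpC against H, and 1 rose and 6 fell in pC against H, against 3 that rose and 2 that fell in each on TPM as deposited.

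Between HpC and pC none of the matrix enzymes, cytosolic enzymes, channels or regulators passed. In the import machinery 1 gene did, Timm10b, a small chaperone of the intermembrane space, with 10.3, 10.3, 6.51 and 7.07 scaled TPM in HpC, against 3.61, 4.46 and 3.14 in pC (0.997 ± 0.21, adjusted p = 0.0249). That call was lost without HpC1 (adjusted p = 0.0520), without any single pC library (adjusted p between 0.0650 and 0.0988) and without HpC1 and HpC2 (0.77, adjusted p = 0.0930). It was also lost on TPM as deposited (0.66, adjusted p = 0.242) and where only protein-coding transcripts were summed (0.47, adjusted p = 0.525).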

How the data were processed

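RNA of 10 libraries of sorted mouse liver cells was sequenced as single-end reads of 50 bases, per the series' design text. The authors deposited TPM per Ensembl transcript. The submitters' processing notes name kallisto, DESeq and the build mm10 without saying what each did. TPM totals are equal in all libraries, so depth and counting error are unknown, and no count test was run.

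Transcripts were joined to genes through GENCODE M21 (mm10) by identifier. Of 85276 transcripts, 81927 matched, and their TPM was summed to 29972 genes; the 3349 unmatched held 4.22% to 9.06% of a library. The filter kept 14765 genes that reached 1 TPM in 3 or more libraries. TPM was divided by a factor per library, a trimmed mean of log ratios (30% of ratios and 5% of levels trimmed at each end); factors ran from 0.668 to 1.61 in HpC, 1.53 to 1.59 in pC and 0.499 to 0.585 in H. Tests used limma 3.58.1 (R 4.3.3) with a mean-dependent prior on log2(scaled TPM + 1), 1 fit of all 10 libraries and Benjamini-Hochberg adjustment over all genes at 5%. The script was tested on simulated data. Pairs were compared by exact permutation tests, adjusted over 24 tests. Tables and figures used Python 3.11.15, pandas 2.3.3 and matplotlib 3.10.9. Shared stretches of 50 bases were sought on either strand among the GENCODE M21 transcripts that the deposited tables list. Promoters came from RefSeq.

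Members, gene lists, pairs and tests were chosen with earlier results of these data known. The naming rule took every member past the threshold between HpC and pC, the 12 called members with the largest change each way against H, both genes of each pair, the 5 members with the highest mean and the members under the filter. Some items are counted but not reported here. Members outside it are named to complete a role or a count, after their values were seen. Alternatives changed the scaling, pseudocount, filter, variance model, library weights, libraries, replicate block and transcripts summed. Counts for gene lists beside the carriers were recomputed under the same settings, added after the data were seen.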

Additional observations from a re-analysis of the deposited data

Results flagged for a closer look

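Among the 47 tested members in the 4 HpC libraries, 3 had a library whose gap to the nearest of the others exceeded Dixon's 95% critical value, as a share of the range; chance gives this in about 1 in 20 groups. Mtch1 was low in HpC4, at 47.3 scaled TPM, against 61.3 to 63.0 in the other HpC libraries. Slc25a17 was high in HpC2, at 33.6, against 15.4 to 17.2. Slc25a45 was high in HpC1, at 5.61, against 1.09 to 1.76. HpC1 held the most pancreatic acinar transcripts and HpC2 the most squamous epithelial ones, and whether those bear on Slc25a45 and Slc25a17 was not tested.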

How the results depend on the processing

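The 0 calls between HpC and pC became 1 on TPM as deposited (0 higher and 1 lower) and 2 with array weights or with either sum of coding transcripts (1 higher and 1 lower each). In HpC against H, 12 members rose and 18 fell on TPM as deposited, and 11 rose as a share of nuclear protein-coding TPM; in pC against H, 16 rose and 19 fell, and 13 rose. The cause was not tested. Leaving out 1 library at a time gave 0 calls between HpC and pC, 30 to 35 calls in HpC against H (5 to 8 higher and 25 to 27 lower) and 35 to 37 in pC against H (6 to 8 higher and 28 to 30 lower). On TPM as deposited, Slc25a25 turned to 0.082 in HpC against H and 0.032 in pC against H, Slc25a28 to 0.41 and 0.86, Slc25a37 to 0.34 and 0.088, and Mtch1 to 1.04 in pC against H. As a share of nuclear protein-coding TPM, Slc25a28 and Slc25a37 turned to 0.20 and 0.18 in HpC against H. Family sums on TPM as deposited were 1426 in HpC, 1718 in pC and 2093 in H, and as a share of nuclear protein-coding TPM 0.247%, 0.278% and 0.434%. No pair ratio passed in the alternatives run for pairs, a design too small to say anything of their stability. Replicate numbers were not taken to pair libraries: deviations of same-numbered libraries correlated between -0.0458 and 0.0839. Libraries of different groups with the same age correlated at 0.161 (HpC2 and pC1), -0.0964 (HpC4 and H2) and 0.0451 (HpC4 and H3), and whether they share an animal or litter is not given by the labels. With the replicate block, 0 members passed between HpC and pC, 5 rose and 25 fell in HpC against H, and 7 rose and 29 fell in pC against H. The unknown depth leaves levels near 0 without a detection limit.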
